A study of Homo sapiens with 4 samples.

Results

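Prostaglandin synthesis and signalling in human proximal tubular cells (HPTCs) was read through 10 genes. The members are the probes whose gene name on the array equals PLA2G4A, PTGS1, PTGS2, PTGES, PTGES2, PTGES3, PTGIS, PTGER2, PTGER4 or HPGD. They are 10 of the 25992 gene names on the array and are read by 11 probes on 29 spots. PTGS1 has a pair of probes, the probes of PTGS2 and PLA2G4A are spotted 10 times each, and every other probe is a single spot. For all 11 probes, RefSeq (GRCh38.p14) lists the target transcript under the symbol that the array uses. Human proximal tubule cells made immortal with papillomavirus E6 and E7 genes gave the line HK-2, and such cells made immortal with telomerase (TERT) gave RPTEC/TERT1. After 24 h without serum or supplements, cells of both lines received IL-1β (10 ng/mL) together with empagliflozin (Empa, 500 nM), an SGLT2 inhibitor, for another 24 h. Each line has 2 of the 4 arrays, and the methods call these biological duplicates. Every array carries both agents, and untreated cells and cells given only IL-1β were not analysed here. The values therefore describe levels in stimulated cells and not a response.

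Prostaglandins are made on demand from arachidonic acid. Cytosolic phospholipase A2 (PLA2G4A) releases arachidonic acid from membranes, and the cyclooxygenases PTGS1, which is constitutive in many tissues, and PTGS2, which inflammatory cytokines induce in many cell types, turn it into prostaglandin H2. Terminal synthases then form prostaglandin E2 (PTGES, PTGES2, PTGES3) or prostacyclin (PTGIS). Prostaglandin E2 acts on receptors that include PTGER2 (EP2) and PTGER4 (EP4), which both raise cyclic AMP, and HPGD starts its inactivation. In the kidney, prostaglandins take part in the control of blood flow and of salt and water handling.

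A level is the processed spot signal relative to the 75th percentile of its array, given as a percent of that percentile or as log2 of the ratio. The 75th percentile itself was 393 to 748 signal units, and 59.2% to 64.9% of the 43118 spots that are not controls were well above background. Spots of a repeated probe had a median SD of 0.082 to 0.14 on the log2 scale within an array, and no member spot was saturated. The software's own error was 10.0% to 13.1% of the signal for PTGER2, PTGER4, PTGES2, PTGES3 and the brighter probe of PTGS1. The arrays do not sort by their labels. Across 17928 genes, levels of the HK-2 arrays correlated at 0.865 and those of the RPTEC/TERT1 arrays at 0.855, whereas the value was 0.980 between replicate 1 of HK-2 and replicate 2 of RPTEC/TERT1 and 0.976 between replicate 2 of HK-2 and replicate 1 of RPTEC/TERT1. Replicate number may stand for a batch, which the labels do not name, and arrays that share the number had correlations of 0.861 and 0.875. An exchange of samples between the labels is possible and was not tested. Every label below is the deposited one, each comparison by label holds only as far as the labels do, and each member is given on each array.

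Marker genes also went across the labels. Of 13 proximal tubule markers, 6 were well above background on all arrays, among them PAX8, GGT1 and LRP2, and 3 on none, which were CUBN, SLC22A6 and HNF4A. Their summed level was 20.7 and 5.67 times the 75th percentile on replicates 1 and 2 of HK-2, and 10.0 and 16.7 times on replicates 1 and 2 of RPTEC/TERT1. PAX8 made up most of this sum, at log2 levels of 4.13, 1.61, 2.79 and 3.73 in the same order, and CDH6 went the other way, at -3.26, 0.27, 0.86 and -3.49. LRP2 was highest on replicate 2 of HK-2. The sum of 5 epithelial markers was 84.2, 36.7, 35.2 and 97.0. The sum of 6 fibroblast and mesangial markers was 0.15 and 1.94 on the arrays labelled HK-2 and 1.48 and 0.15 on those labelled RPTEC/TERT1. It was carried by LUM and DCN, while COL3A1, PDGFRB and THY1 were not well above background on any array. Where the sum was 0.15, all 6 lay at or near the floor, the lowest level given (2.42% of the 75th percentile, log2 of -5.37). That value of 0.15 is thus mostly the floor and not measured signal. The sum of 4 leukocyte markers was 0.94 and 1.42 on HK-2, and 1.87 and 0.88 on RPTEC/TERT1. CD68 made up most of it, at log2 levels of -0.49, 0.15, 0.62 and -0.54 in the same order. PTPRC and CD14 were dim, between -4.25 and -2.33, and CD3E was well above background on 1 array only. In RNA of a whole culture, fewer cells of a type and less RNA per cell cannot be told apart, and the part of these markers in the values below was not tested.

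Promoter sequences are shown for 3 members that the results turn on. They are PTGS2, which was not detected, and the receptors PTGER2 and PTGER4, which lay in opposite directions across the arrays. Each is the 250 bases before the RefSeq gene start on GRCh38.p14, 5′ to 3′ in the direction of the gene, with matches to 6 short patterns, searched on both strands, in capitals. The patterns are the TATA box (TATAAA), the CCAAT box (CCAAT), the CRE half-site (TGACG), the GC box (GGGCGG), a C/EBP pattern (TTGCNNAA) and a broad NF-κB-like pattern, which is GGGA and CC set 4 bases apart.
PTGS2, chr1:186680424-186680673, minus strand: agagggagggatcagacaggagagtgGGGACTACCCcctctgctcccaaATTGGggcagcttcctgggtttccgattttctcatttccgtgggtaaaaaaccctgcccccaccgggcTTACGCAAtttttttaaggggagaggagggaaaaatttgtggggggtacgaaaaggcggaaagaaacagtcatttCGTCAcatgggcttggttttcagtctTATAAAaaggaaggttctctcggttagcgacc
PTGER2, chr14:52314062-52314311, plus strand: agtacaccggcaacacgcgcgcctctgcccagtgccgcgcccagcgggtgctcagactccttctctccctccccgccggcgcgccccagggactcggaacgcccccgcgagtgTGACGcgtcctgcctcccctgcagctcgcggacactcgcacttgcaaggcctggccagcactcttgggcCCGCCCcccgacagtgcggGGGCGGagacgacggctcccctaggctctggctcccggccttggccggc
PTGER4, chr5:40679665-40679914, plus strand: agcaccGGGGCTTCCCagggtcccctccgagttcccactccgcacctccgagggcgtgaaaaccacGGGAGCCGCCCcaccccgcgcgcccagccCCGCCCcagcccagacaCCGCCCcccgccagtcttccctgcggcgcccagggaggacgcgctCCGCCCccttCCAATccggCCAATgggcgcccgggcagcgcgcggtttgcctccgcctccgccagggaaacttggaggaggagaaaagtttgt

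The PTGS2 window held 5 of the 6 patterns and no GC box. Counted from the start, its TATA box lay at -32 to -27, its CRE half-site at -58 to -54 and its C/EBP pattern at -133 to -126, the last 2 on the other strand. Its NF-κB-like match lay at -224 to -215. The receptor windows held GC boxes instead, 2 in PTGER2 and 4 in PTGER4, and no TATA box, and 1 of these boxes in PTGER4 overlaps an NF-κB-like match. Of all 35116 windows of the same length, 10.7% held a TATA box, 32.0% a CCAAT box, 21.2% a CRE half-site, 42.6% a GC box, 9.05% the C/EBP pattern and 22.6% the NF-κB-like pattern. A window was listed for 9 members, PTGIS being the other, and 13 windows stand for these 9 because some have several starts. Of the 9 members, 2 held a TATA box in any window and 7 a GC box. A match describes letters only.

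**Figure D1:**
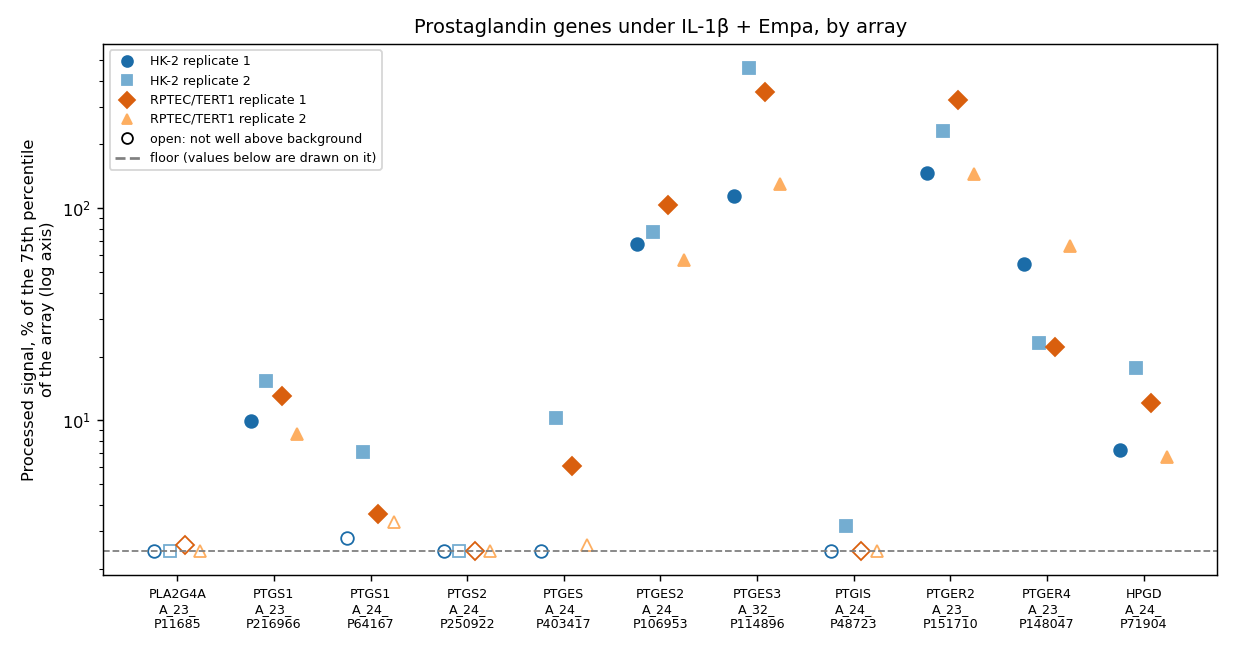
Processed signal of each member probe, as percent of the 75th percentile of its array on a log axis, on each of the 4 arrays; filled symbols were well above background, open ones were not, and values under the floor of 2.42% are drawn on it. PTGES3 and PTGER2 lie above 100% on every array, and PTGS2 lies on the floor on every array.

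PTGS2, the cytokine-inducible cyclooxygenase, was not detected on any of the 4 arrays of IL-1β + Empa. Its probe A_24_P250922 lies on chromosome 1 of GRCh37 from 186641469 to 186641528, on the minus strand. The mean signal of its spots was 3.20 ± 2.31 (SD, 10 spots) units on replicate 1 of HK-2 and -1.92 ± 2.81 (SD, 9 spots) on replicate 2 of HK-2. On the arrays labelled RPTEC/TERT1 it was 1.73 ± 2.63 (SD, 10 spots) on replicate 1 and 4.44 ± 2.25 (SD, 9 spots) on replicate 2. None of these spots was well above background. They all repeat the same probe, read at 24 h only. Whether that probe gives signal where the transcript is present was not tested. The means were higher than 81.0% to 97.4% of the 153 negative controls of the same array, and only on replicate 2 of RPTEC/TERT1 did the mean pass their 95th percentile. No fold between the labelled cell lines can be given, because each array sets only an upper limit. The limit used here is the floor of 2.42% of the 75th percentile, the highest over the arrays of the dimmest scaled signal marked as well above background. A spot can pass it and still not be marked, as PTGES did at 2.58% on replicate 2 of RPTEC/TERT1.

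PTGS1, the constitutive cyclooxygenase, was present at a low level on all arrays. Probe A_23_P216966 (chromosome 9 of GRCh37, 125155052 to 125155111) stood at 9.96% of the 75th percentile on replicate 1 of HK-2, 15.4% on replicate 2 of HK-2, 13.1% on replicate 1 of RPTEC/TERT1 and 8.65% on replicate 2 of RPTEC/TERT1. Its highest array was 1.78 times its lowest. Probe A_24_P64167, which lies further along the gene (125157536 to 125157595), read 2.79%, 7.12%, 3.60% and 3.33% in the same order, and was well above background on replicate 2 of HK-2 and replicate 1 of RPTEC/TERT1 only. Both probes were brighter on these arrays than on the others, and the arrays of the labelled cell lines overlapped. This order rests on the processed signal. With normexp background correction PTGS1 was instead highest on replicate 1 of HK-2, at -0.30, against -2.41 to -2.45 on the others. On that array PTGES and the receptor PTGER1, both not well above background there, read -0.32 and -0.33 with normexp. The value of -0.30 thus does not show more PTGS1 there.

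PLA2G4A, which releases arachidonic acid, was at the edge of detection. Its probe A_23_P11685 lies on chromosome 1 of GRCh37 from 186957652 to 186957711. Its spots averaged -0.115 ± 1.51 units (SD, 9 spots) on replicate 1 of HK-2 and -0.335 ± 1.20 (SD, 9 spots) on replicate 2 of RPTEC/TERT1. On replicate 2 of HK-2 they averaged 15.3 ± 4.65 (SD, 10 spots) and on replicate 1 of RPTEC/TERT1 they averaged 12.7 ± 2.26 (SD, 10 spots). Relative to the 75th percentile, the used spots spanned -0.50% to 0.76% on replicate 1 of HK-2 and -0.38% to 0.36% on replicate 2 of RPTEC/TERT1. They spanned 0.75% to 2.79% on replicate 2 of HK-2 and 1.87% to 3.41% on replicate 1 of RPTEC/TERT1, where 2 of 10 spots each were marked as well above background. The spots on the brighter arrays lay above those on the dimmer ones except 1 spot of replicate 2 of HK-2, and each side holds 1 array of each label. Spots of 1 array share its RNA, so they measure technical error only, and by the rule that most spots must be well above background the gene counts as not detected.

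**Figure D2:**
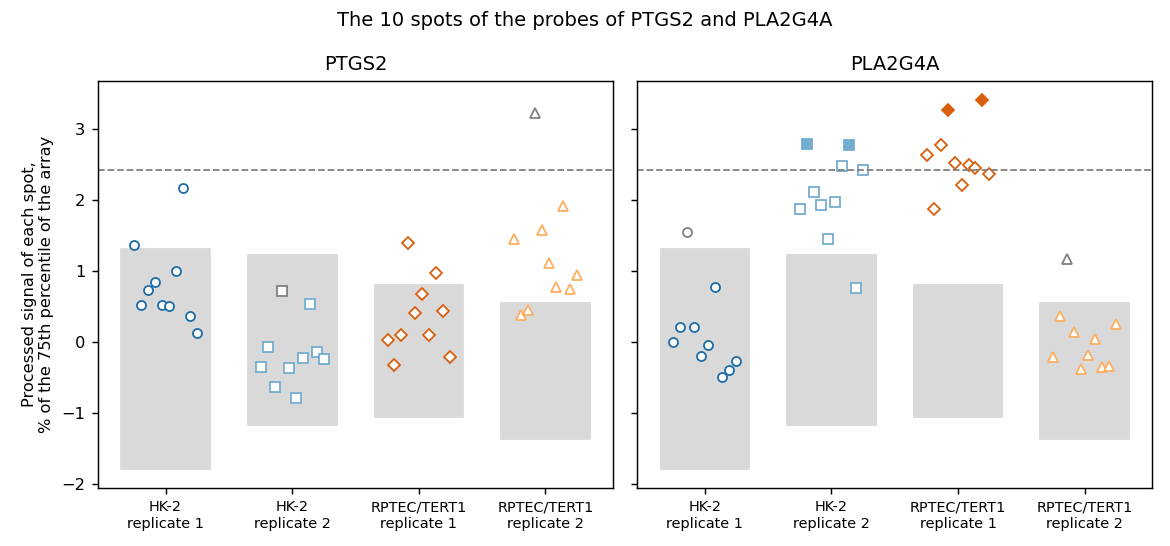
Processed signal of each of the 10 spots of PTGS2 and of PLA2G4A on each array, as percent of the 75th percentile of the array; filled symbols were well above background, grey outlines mark spots left out as outliers, grey bands span the 5th to the 95th percentile of the 153 negative controls, and the dashed line is the floor of 2.42%. PTGS2 stays near the bands on all arrays, and PLA2G4A lies above them on replicate 2 of HK-2 and replicate 1 of RPTEC/TERT1, 1 spot of replicate 2 of HK-2 excepted.

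The synthases of prostaglandin E2 were all brighter on replicate 2 of HK-2 and replicate 1 of RPTEC/TERT1 than on the other arrays by processed signal, and only PTGES3 kept this split with normexp background correction and with the deposited log2 values. PTGES3, a cytosolic synthase that is also the HSP90 co-chaperone p23, stood at 114% of the 75th percentile on replicate 1 of HK-2, 458% on replicate 2 of HK-2, 355% on replicate 1 of RPTEC/TERT1 and 130.4% on replicate 2 of RPTEC/TERT1. The highest was 4.02 times the lowest, and both were arrays labelled HK-2. For its probe A_32_P114896 the files give only 9 bases of position (chromosome 12 of GRCh37, 57057110 to 57057118), and transcripts of related sequence could add to the signal. PTGES2, a membrane-associated synthase read by A_24_P106953 (chromosome 9, 130886007 to 130886066), stood at 68.0%, 77.3%, 103% and 56.9% in the same order. Its highest array was 1.82 times its lowest, and the arrays labelled RPTEC/TERT1 enclosed those labelled HK-2.

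PTGES, the inducible microsomal synthase that commonly works with PTGS2, was well above background on 1 array of each labelled cell line. Probe A_24_P403417 (chromosome 9 of GRCh37, 132501510 to 132501569) stood at 10.3% of the 75th percentile on replicate 2 of HK-2 and 6.11% on replicate 1 of RPTEC/TERT1. On replicate 1 of HK-2 it read 0.61% and on replicate 2 of RPTEC/TERT1 it read 2.58%, both not well above background. With normexp the level of PTGES was highest on replicate 1 of HK-2, at -0.32, where PTGER1, at the floor by processed signal, read -0.33. The order of PTGES over the arrays thus depends on the processing. The normexp setting also adds an offset of 50 and sets no floor, and the part of each step was not tested. By processed signal, replicate 2 of HK-2 was 4.26-fold brighter than the floor value that stands for replicate 1 of HK-2. That fold is no firm bound, since the spot on replicate 1 of HK-2 read 2.40 ± 4.30 units (software error). PTGIS, which makes prostacyclin, had 1 spot well above background, at 3.17% on replicate 2 of HK-2. Its probe A_24_P48723 (chromosome 20, 48120448 to 48120507) read -0.94% on replicate 1 of HK-2, and 1.14% and -0.28% on replicates 1 and 2 of RPTEC/TERT1. With 1 array of 4 measured, no fold is given.

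The receptors of prostaglandin E2 were well above background on every array and lay in opposite directions across them. PTGER2 (EP2), read by A_23_P151710 (chromosome 14 of GRCh37, 52794430 to 52794489), stood at 147% of the 75th percentile on replicate 1 of HK-2, 232% on replicate 2 of HK-2, 324% on replicate 1 of RPTEC/TERT1 and 145% on replicate 2 of RPTEC/TERT1. PTGER4 (EP4), read by A_23_P148047 (chromosome 5, 40693563 to 40693622), stood at 54.8% on replicate 1 of HK-2, 23.2% on replicate 2 of HK-2, 22.2% on replicate 1 of RPTEC/TERT1 and 66.5% on replicate 2 of RPTEC/TERT1. PTGER2 was thus high where PTGER4 was low, with 1 array of each label on either side, and both kept this split with normexp, quantile normalization and the deposited log2 values. A looser measure is a difference between the labels that turned from replicate 1 to replicate 2. By processed signal such a turn was common, in 85.1% of the 16468 genes tested. The share of all genes with the split itself was not counted. The highest array was 2.24 times the lowest for PTGER2 and 2.99 times for PTGER4, and in both cases the highest and the lowest array carried the label RPTEC/TERT1. HPGD, which oxidises prostaglandins to inactive products, was high on the same arrays as PTGER2 by processed signal, but highest on replicate 1 of HK-2 with normexp, at a level of -0.30. With normexp PTGER1, at the floor on that array by processed signal, read -0.33 there. The HPGD probe A_24_P71904 (chromosome 4, 175411686 to 175411745) stood at 7.23%, 17.8%, 12.1% and 6.73% on replicates 1 and 2 of HK-2 and replicates 1 and 2 of RPTEC/TERT1.

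Between the labelled cell lines no member differed by more than the spread between arrays. Of the members, 7 were well above background on at least 2 arrays and were tested, which leaves out PTGS2, PTGIS and PLA2G4A. With limma, 0 of the 7 had an adjusted p under 0.05 over the 16468 genes tested, where 0% of genes were called, and 0 of the 7 and 23 of all genes had an unadjusted p under 0.05. The groups of arrays overlapped for all 7 members, whereas 7.17% of all genes did not overlap. HK-2 minus RPTEC/TERT1 in log2 level was 0.29 ± 0.55 (SE) for PTGS1, 0.33 ± 0.93 for PTGES, which rests on a floor value on 1 array, and 0.086 ± 0.94 for PTGES3. It was 0.33 ± 0.67 for HPGD, -0.080 ± 0.52 for PTGES2, -0.23 ± 0.62 for PTGER2 and -0.11 ± 0.80 for PTGER4, all with an adjusted p of 1 from limma. The narrowest 95% interval, that of PTGES2, ran from -1.48 to 1.32, and the widest, that of PTGES3, from -2.47 to 2.64. Each interval spans more than a 2-fold difference in both directions, so the comparison shows neither a difference nor its absence.

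**Figure D3:**
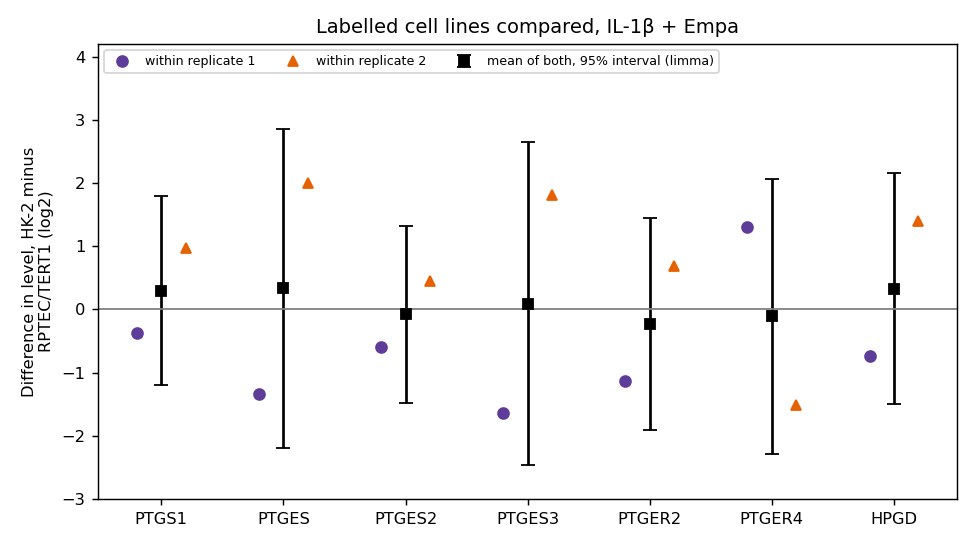
Difference in level between the labelled cell lines, HK-2 minus RPTEC/TERT1 on the log2 scale, for the 7 members tested; squares with bars are the mean difference with its 95% interval from limma, circles the difference within replicate 1 and triangles that within replicate 2. The circle and the triangle lie on opposite sides of 0 for each of the 7 members, and for 4 of them also with normexp background correction.

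Within a replicate number the same comparison came out in opposite directions. In replicate 1, HK-2 minus RPTEC/TERT1 in log2 level was below 0 for 6 members, at -0.38 for PTGS1, -1.34 for PTGES, -0.60 for PTGES2, -1.64 for PTGES3, -1.13 for PTGER2 and -0.74 for HPGD, and it was 1.30 for PTGER4. In replicate 2 these 6 were above 0, at 0.96, 2.00, 0.44, 1.81, 0.68 and 1.40 in the same order, and PTGER4 stood at -1.52. The direction turned for all 7 members tested, as it did for 85.1% of the 16468 genes. It turned for 4 of the 7 with normexp and for 4 with the deposited log2 values, which were PTGES2, PTGES3, PTGER2 and PTGER4, and for 70.9% and 78.8% of all genes. Past a 2-fold difference lay 4 of 7 members in replicate 1, where 36.0% of all genes did, and 4 of 7 in replicate 2, where 33.7% did. Each of these differences sets 1 array against 1 array and has no test.

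Pairs of arrays with the same label lay further apart in the members than pairs that share neither label nor replicate number. Between the arrays labelled HK-2, 4 of 7 members differed past 2-fold, against 34.0% of all genes, and the median size of the difference was 1.24 log2 units for the members and 0.67 for all genes. Between the arrays labelled RPTEC/TERT1, 4 of 7 did, against 40.4% of all genes, with medians of 1.16 and 0.79. Between replicate 1 of HK-2 and replicate 2 of RPTEC/TERT1, 0 of 7 members passed 2-fold, against 4.90% of all genes, and between replicate 2 of HK-2 and replicate 1 of RPTEC/TERT1, 0 of 7, against 6.78%. The median difference of the members was 0.10 in the former of these pairs and 0.48 in the latter, where PTGES (0.75), PTGS1 (0.61) and HPGD (0.56) were higher on replicate 2 of HK-2 and PTGER2 (-0.48) and PTGES2 (-0.42) lower. The members are 7 genes, and nothing particular to them follows from these counts.

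**Figure D4:**
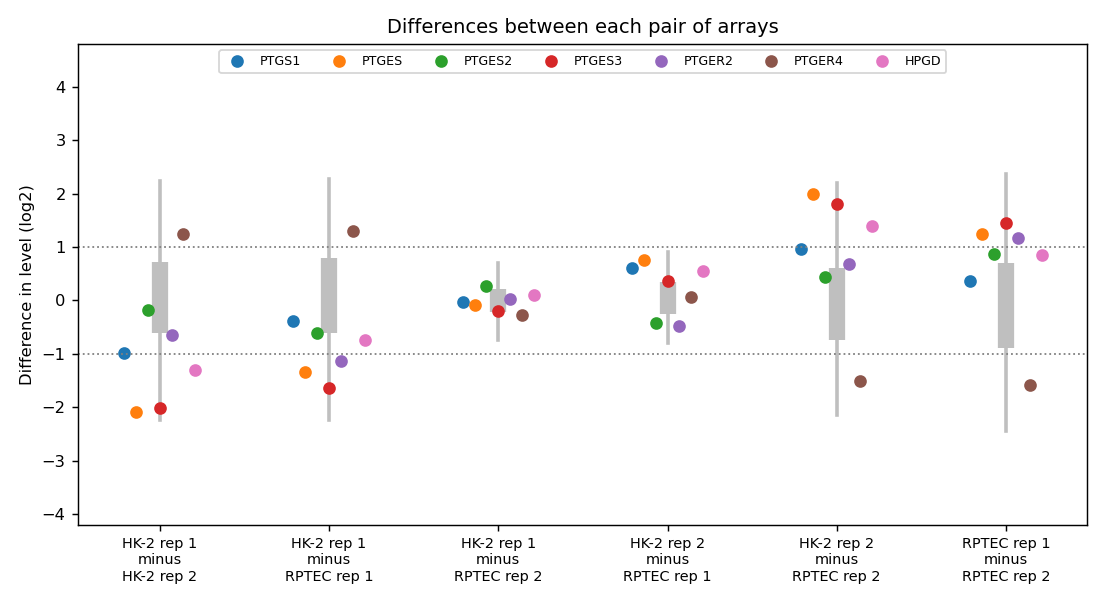
Difference in level on the log2 scale between each pair of the 4 arrays (RPTEC stands for RPTEC/TERT1) for the 7 members tested; thick grey bars span the 25th to the 75th percentile and thin bars the 5th to the 95th percentile of the 16468 genes, and dotted lines mark 2-fold. The members spread past the dotted lines in 4 pairs and stay within them between replicate 1 of HK-2 and replicate 2 of RPTEC/TERT1 and between replicate 2 of HK-2 and replicate 1 of RPTEC/TERT1.

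Other genes of arachidonic acid metabolism were taken from a list of 43, of which 42 are named on the array, 21 were well above background on all arrays and 14 on none. Of the 24 tested, limma called 0 between the labelled cell lines, and 0 had even an unadjusted p under 0.05. The groups of arrays did not overlap for TBXA2R, PTGR1, PTGR2 and ALOX5AP among the 24, against 7.17% of all genes. For these, HK-2 minus RPTEC/TERT1 in log2 level was -0.29, -0.10, -0.25 and 0.60. Between the arrays labelled HK-2, 12 of the 24 differed past 2-fold, against 34.0% of all genes, and 12 did between those labelled RPTEC/TERT1, against 40.4%. In each pair that shares neither label nor replicate number, 2 of the 24 did, against 4.90% and 6.78% of all genes. AKR1C3, an aldo-keto reductase that forms prostaglandin F, had the widest range, with levels of 5.06 and -1.94 on replicates 1 and 2 of HK-2 and of -2.60 and 5.36 on replicates 1 and 2 of RPTEC/TERT1 (log2 of the ratio to the 75th percentile). Its highest array was 249 times its lowest, both labelled RPTEC/TERT1, and near-identical AKR1C genes may share its probe. ANXA1, a protein known to restrain phospholipase A2, stood at 5.38, 0.75, 0.36 and 5.32 in the same order, a 32.4-fold range. AKR1C3 and ANXA1 were high where PTGES3 was low, under each of the scalings tried.

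Transport and the remaining synthases varied too. SLCO2A1, the prostaglandin transporter, had levels of 1.54 and -0.43 on replicates 1 and 2 of HK-2 and of -0.61 and 1.18 on those of RPTEC/TERT1, a 4.43-fold range. FAM213B, now PRXL2B, a prostamide and prostaglandin F synthase, stood at 3.69, 1.62, 1.32 and 3.42, and CBR3, a carbonyl reductase, at -0.29, -1.76, -2.41 and 0.35. Both were high on the arrays where SLCO2A1 was high. The probes of PTGDS, which makes prostaglandin D2, disagreed. A_33_P3298159 read -3.14, 3.66, 2.75 and -3.63 in the same order, and A_33_P3219811 read -1.22, -0.63, -1.78 and 0.022. Among the other receptors, PTGER1 (EP1), chosen after its values were seen, was well above background on 2 arrays, at -2.01 on replicate 2 of HK-2 and -2.51 on replicate 1 of RPTEC/TERT1, and at the floor of -5.37 on the others, an order that normexp did not keep. TBXA2R and PTGFR were well above background on all 4 arrays. On replicates 1 and 2 of HK-2, then of RPTEC/TERT1, TBXA2R stood at -1.37, -1.01, -0.87 and -0.93. PTGFR was dimmer, at -3.53, -2.57, -3.08 and -3.55 in the same order. PTGER3, PTGIR, PTGDR and PTGDR2 were not well above background on any array.

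**Figure D5:**
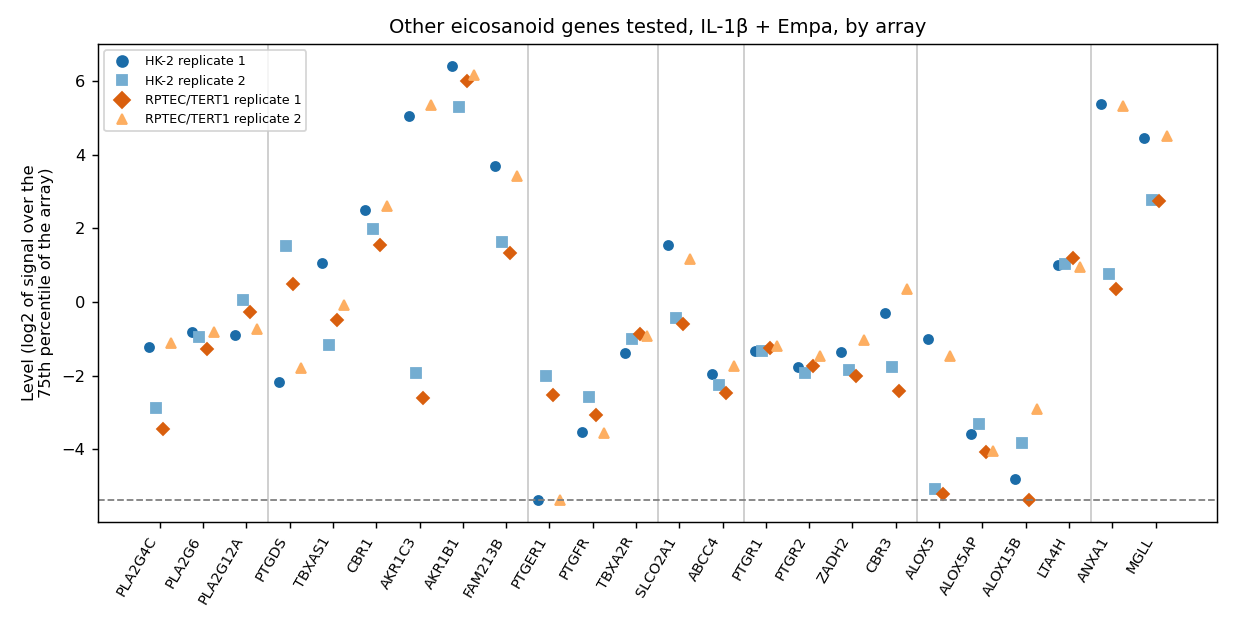
Level on the log2 scale of the 24 other eicosanoid genes tested, on each array, with vertical lines between groups of genes by role and a dashed line at the floor of -5.37. AKR1C3, ANXA1 and SLCO2A1 are high on replicate 1 of HK-2 and replicate 2 of RPTEC/TERT1, and LTA4H, PTGR1 and PTGR2 lie close together on all arrays.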

How the data were processed

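Total RNA of each sample was hybridised to a one-colour Agilent whole human genome array, 1 slide per sample, and scanned at 5 µm per pixel. Per the file headers, Feature Extraction 9.5.3.1 made the spot intensities, subtracted the local background and set the flags on which the deposited intensity values rest. The deposited log2 values of the series table follow the background-subtracted mean signal of the same array (Spearman 0.999), with medians of 6.72 to 8.33 and minima of 5.65 to 5.75, and their scaling and centring are not stated. Probe positions are those of the files on GRCh37 and promoter windows are RefSeq's on GRCh38.p14. No annotation of GRCh37 was used, so exon or UTR is not given.

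Each array's 75th percentile was divided out of its processed signals, which were set to a floor and taken to log2. Control spots and outlier flags were left out, spots of a probe were averaged, and probes of a gene were averaged on the log2 scale. Genes well above background on at least 2 arrays were fitted with limma 3.58.1 in R 4.3.3, comparing the labelled cell lines with Benjamini-Hochberg adjustment over all 16468. The fit was first run on simulated data that differed by label, with a spread between arrays smaller than that of most members. That run checks the code and does not give the power of the comparison here. The labels give no separate cultures, so p-values measure the spread between these arrays. With 2 arrays a label the precision is low. Named genes were the members, SLCO2A1 and the 5 other genes of the list with the widest range over the arrays among those well above background on all 4. A search for genes patterned like PTGS2 could not be run, since PTGS2 was not above background. Alternatives were other scalings, background corrections, filters, probe rules, the replicate block and each array left out. The members and lists were chosen with earlier results of these data known.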

Additional observations from a re-analysis of the deposited data

Results flagged for a closer look

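The difference between the labelled cell lines (HK-2 minus RPTEC/TERT1, log2 level) had opposite signs in replicates 1 and 2 for all 7 members tested, each a comparison of 1 array with 1 array, so the change between replicates was not tested. Replicate 1 minus replicate 2 came to -3.45 for PTGES3, -3.34 for PTGES, where a floor value enters, -2.14 for HPGD, -1.82 for PTGER2, -1.35 for PTGS1 and -1.05 for PTGES2. PTGER4 went the other way, at 2.82. The median size was 2.14 for the members and 1.33 for all 16468 genes, of which 85.1% changed sign. With normexp background correction or the deposited log2 values the signs were opposite only for PTGES2, PTGES3, PTGER2 and PTGER4, 4 of 7, and for 70.9% and 78.8% of all genes. The replicate number may stand for a batch, which the labels do not name, and the part of a batch was not tested.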

How the results depend on the processing

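No gene was called between the labelled cell lines under any of 14 alternatives with limma, 0 members and 0 list genes included, while 3 to 245 genes had an unadjusted p under 0.05 (23 in the comparison as reported). A replicate block left 0 calls, with 5 genes at an unadjusted p under 0.05. Arrays of the same number deviated from the mean of their label in opposite directions (correlation -0.81). An exchange of samples between the labels would give this sign too, so whether the numbers pair the samples cannot be told. The crossed replicate block, added after seeing the data, gave 0 called and 183 at an unadjusted p under 0.05. Of 62 differences in members under alternatives that keep all arrays, 58 kept their direction. Most of them could not turn, since the blocks, the filters and keeping outlier spots left each difference exactly as it was. Only normexp, quantile normalization and the deposited log2 values changed the differences, and for PTGS1 also the rule of the brightest probe. PTGER4 turned to 0.17 with normexp background correction and 0.040 with the deposited log2 values, and PTGES2 to 0.12 and 0.037, and the cause was not tested. With an array left out, 12 of 26 differences turned. They ran from -0.20 to 0.79 for PTGS1, -0.29 to 1.38 for PTGES, -0.51 to 0.35 for PTGES2, -0.92 to 1.09 for PTGES3, -0.81 to 0.36 for PTGER2, -0.90 to 0.68 for PTGER4 and -0.32 to 0.98 for HPGD. Members past 2-fold in replicate 2 fell from 4 to 2 with both the deposited log2 values and normexp (20.6% and 22.1% of all genes), while those in replicate 1 rose from 4 to 6 (44.4% and 58.6% of all genes, against 36.0%). Of 56 mean levels, 7 moved by more than 1 SD, all of the dim genes PTGS1, PTGES and HPGD. The filters and keeping outlier spots left these levels unchanged, so those settings could not move them. With normexp and with the deposited log2 values PTGS1, PTGES and HPGD were brightest on replicate 1 of HK-2. Their order over the arrays thus depends on the processing, and which step of it changes the order was not tested. PTGER1, at the floor on that array by processed signal, read -0.33 and -1.07 there, close to them, so these values do not show higher expression. PTGES3 and PTGER2 stayed higher, and PTGER4 lower, on replicate 2 of HK-2 and replicate 1 of RPTEC/TERT1 than on the other arrays. The slide could not be a block, since each array has its own. Signal over background limits PTGS2, PLA2G4A, PTGIS and PTGES to approximate bounds on some or all arrays.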
